A study of Schizosaccharomyces pombe with 4 samples.

Results

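The nuclear tRNA genes described here decode 16 amino acids of the fission yeast Schizosaccharomyces pombe, all except cysteine, tryptophan, leucine and serine. They were chosen by identifier, as the nuclear tRNA genes of the deposited count table without those 4 isotypes, which gave 139 of the 171 nuclear tRNA genes among 7049 genes in all. RNA sequencing compared delta4dus, a strain in which dus1, dus2, dus3 and dus4 are deleted, with a wild-type strain, in 2 libraries each. Both strains were cultured in YES, a rich medium, at 32 °C to an optical density at 595 nm of about 0.5, and 50 mL of culture was taken for each library. Total RNA was depleted of ribosomal RNA and made into strand-specific libraries. The labels name no other alleles, and do not state whether delta4dus was 1 isolate or whether replicates were separate cultures. P-values hence measure the spread between these samples alone.

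A tRNA carries an amino acid to the ribosome and reads a codon through its anticodon. RNA polymerase III transcribes tRNA genes, the ends of the precursor are trimmed, any intron is spliced out, and many bases are then modified. The dus genes encode dihydrouridine synthases, which reduce uridine to dihydrouridine; in Saccharomyces cerevisiae they act in the D loop and the variable loop of tRNA. Gene copies with the same anticodon make 1 isoacceptor, and isoacceptors for the same amino acid make 1 isotype.

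The 139 genes comprised 49 distinct spliced sequences and 35 isoacceptors, counting initiator and elongator tRNA-Met as 2. The isotypes ranged from 4 copies, for tRNA-His and tRNA-Tyr, to 13, for tRNA-Arg. The spliced sequences below are shown to compare isoacceptors within tRNA-Glu, tRNA-Gln and tRNA-Val, a pair of tRNA-Asn sequences, the initiator and elongator tRNA-Met, and a tRNA-Asp gene annotated on the other strand. They are RefSeq sequences of ASM294v3, written 5′ to 3′ as DNA; capitals mark first the D loop and then the anticodon. The last one, an annotated tRNA-Asp gene, has no capitals because neither was found on its annotated strand.
tRNA-Glu-TTC (SPATRNAGLU.01, chrI:718119-718190, minus strand): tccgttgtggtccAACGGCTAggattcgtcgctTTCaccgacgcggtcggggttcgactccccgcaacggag
tRNA-Glu-CTC (SPATRNAGLU.03, chrI:3765434-3765505, minus strand): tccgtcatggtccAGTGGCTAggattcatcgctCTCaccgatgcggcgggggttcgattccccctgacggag
tRNA-Gln-TTG (SPBTRNAGLN.02, chrII:257908-257979, minus strand): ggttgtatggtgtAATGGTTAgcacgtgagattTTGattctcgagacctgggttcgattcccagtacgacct
tRNA-Gln-CTG (SPBTRNAGLN.01, chrII:257454-257525, plus strand): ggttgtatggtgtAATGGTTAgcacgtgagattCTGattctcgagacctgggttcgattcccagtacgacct
tRNA-Val-AAC (SPATRNAVAL.03, chrI:2214733-2214814, minus strand): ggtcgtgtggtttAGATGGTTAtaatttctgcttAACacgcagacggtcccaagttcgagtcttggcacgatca
tRNA-Val-TAC (SPATRNAVAL.02, chrI:703075-703147, minus strand): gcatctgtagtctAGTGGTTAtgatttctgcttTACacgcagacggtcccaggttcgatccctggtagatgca
tRNA-Val-CAC (SPATRNAVAL.01, chrI:446000-446071, plus strand): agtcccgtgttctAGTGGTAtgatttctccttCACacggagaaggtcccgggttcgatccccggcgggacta
tRNA-Asn-GTT (SPBTRNAASN.01, chrII:1597996-1598069, minus strand): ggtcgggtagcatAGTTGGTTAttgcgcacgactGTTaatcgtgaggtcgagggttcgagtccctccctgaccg
tRNA-Asn-GTT (SPBTRNAASN.04, chrII:4210053-4210126, minus strand): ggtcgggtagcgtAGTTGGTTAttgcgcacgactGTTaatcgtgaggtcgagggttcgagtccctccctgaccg
initiator tRNA-Met-CAT (SPATRNAMET.01, chrI:1096474-1096545, plus strand): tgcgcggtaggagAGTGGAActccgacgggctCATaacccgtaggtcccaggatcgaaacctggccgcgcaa
elongator tRNA-Met-CAT (SPATRNAMET.02, chrI:1484979-1485061, minus strand): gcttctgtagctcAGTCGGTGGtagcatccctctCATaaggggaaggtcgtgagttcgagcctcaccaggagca
tRNA-Asp-GTC (SPATRNAASP.01, chrI:4532857-4532927, plus strand): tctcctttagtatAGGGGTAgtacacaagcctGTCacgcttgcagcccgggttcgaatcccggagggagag
tRNA-Asp (SPBTRNAASP.05, chrII:1602347-1602417, plus strand): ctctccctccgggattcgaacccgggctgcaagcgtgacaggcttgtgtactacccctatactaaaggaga

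Depth was high and most of it was ribosomal RNA. Libraries held 435405178 and 495098038 counts in delta4dus, against 289767027 and 264948323 in wild-type, of which 46160896 to 59273688 in delta4dus and 40203853 to 44356401 in wild-type lay outside ribosomal RNA genes. All 4 deleted genes had fewer normalised counts in both delta4dus libraries than in both wild-type libraries; dus4, with the smallest gap, had 309 and 153 in delta4dus and 533 and 562 in wild-type. Normalised counts of the 36 5S ribosomal RNA genes, also made by RNA polymerase III, were 9775741 and 28982637 in delta4dus and 8213002 and 18523093 in wild-type. The second library of each strain was therefore high in 5S ribosomal RNA, and the tRNA genes moved with it, as the values below show; the part of this in the results was not tested.

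The tRNA genes together had more counts in both delta4dus libraries before normalisation, but these libraries were also larger in total. As a share of counts outside ribosomal RNA the tRNA genes were also higher in both, but the groups overlapped after normalisation. The 139 genes held 207051 and 257777 counts in the delta4dus libraries, against 113927 and 131963 in wild-type, and made up 0.349% and 0.558% of the counts outside ribosomal RNA in delta4dus and 0.257% and 0.328% in wild-type. After normalisation their sum was 155910 and 282113 in delta4dus and 114896 and 158781 in wild-type. The first delta4dus library thus lay below the second wild-type library, and the second delta4dus library was far above the other 3. The log2 fold change of the sum was 0.68 (SE 0.34, 95% interval −0.16 to 1.52), with an adjusted p of 0.676 by edgeR's quasi-likelihood test (Benjamini-Hochberg). Without the second delta4dus library it was 0.19, and with library totals alone as the scaling 0.16. In RNA from a whole culture, more RNA per cell and more cells with that RNA cannot be told apart.

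Gene by gene the same library stood out. Of the 139 genes, 130 had their highest normalised count in the second delta4dus library and 100 their lowest in the first wild-type library. On a log2 scale relative to each gene's mean over the 4 libraries, the median gene stood at −0.23 and 0.78 in the delta4dus libraries and at −0.54 and −0.0079 in wild-type. The difference between the replicates of delta4dus was thus larger than the difference between the strains.

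**Figure D1:**
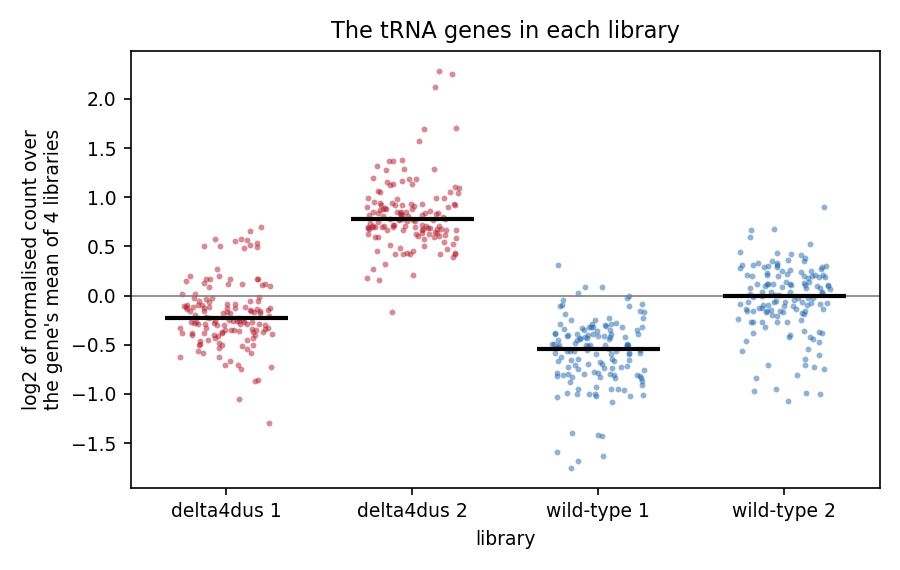
Each point is 1 of the 139 tRNA genes, placed by the log2 ratio of its normalised count in a library to its mean over the 4 libraries, and black lines are medians. The second delta4dus library stands highest, with a median of 0.78, and the first wild-type library lowest, with a median of −0.54.

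With genotype as the only term, no single gene passed edgeR's quasi-likelihood test at an adjusted p of 0.05. That test called 0.0147% of all 6813 genes higher and 0.0587% lower. Calls with the replicate number as a block differed and are given in the closing section. At an unadjusted p under 0.05, 21 genes were higher and 1 lower, where all genes gave 3.55% higher and 4.02% lower. In 38 genes both delta4dus libraries lay above both wild-type libraries and in 1 gene below, against 19.0% above and 19.7% below among all genes. The log2 fold change was positive in 137 of the 139 genes, with a median of 0.67 and a range from −1.19 to 2.23; over all genes tested the median was 0. Without the second delta4dus library the median of the tRNA genes was 0.03 and 73 of 139 were positive. DESeq2 called 10 genes higher, where it called 0.432% of all genes higher, and the authors' deposited table lists 9 of those with an adjusted p under 0.05, against 0.380% of its genes. Copies that share sequence and reads are not separate observations in any of these counts of genes.

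The 9 genes that pass in the authors' deposited table fall into 3 isoacceptors. They are the 4 copies of tRNA-Glu-TTC (SPATRNAGLU.01, SPATRNAGLU.02, SPBTRNAGLU.06 and SPBTRNAGLU.07), 2 copies of tRNA-Ile-AAT (SPATRNAILE.04 and SPBTRNAILE.07) and 3 copies of tRNA-Val-AAC (SPATRNAVAL.04, SPCTRNAVAL.09 and SPCTRNAVAL.12). The largest log2 fold change among them in the authors' deposited table was 1.52 for SPATRNAILE.04 (adjusted p = 0.00367) and the smallest 0.82 for SPATRNAVAL.04 (adjusted p = 0.0353). SPATRNAGLU.01 overlaps the gene SPAC1296.05c on the same strand, so its counts may include reads of both. The tenth gene called by DESeq2 was SPBTRNAVAL.07, also a copy of tRNA-Val-AAC. Counts of SPATRNAGLU.02, SPBTRNAGLU.06 and SPBTRNAGLU.07 were equal within 2% in every library, so these 3 calls are not separate observations.

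Isotypes differed far more in level than the strains did. Per annotated base, tRNA-Glu had 96.7 and 152 normalised counts in delta4dus and 66.2 and 90.3 in wild-type, the highest of the 16 isotypes in each library. The next was tRNA-Asp, with 36.3 and 69.6 in delta4dus and 24.8 and 37.9 in wild-type. At the other end, tRNA-Ala had 1.23 and 2.63 in delta4dus and 0.941 and 1.34 in wild-type, a mean 65.9-fold below that of tRNA-Glu. tRNA-Glu, tRNA-Asp, tRNA-Thr and tRNA-Ala held ranks 1, 2, 15 and 16 in all 4 libraries. Between them, the order was tRNA-Gln, tRNA-Asn, tRNA-Pro, tRNA-Ile, tRNA-Met, tRNA-Phe, tRNA-Val, tRNA-Gly, tRNA-His, tRNA-Arg, tRNA-Lys and tRNA-Tyr, and for no isotype did all 4 libraries lie above all 4 of the isotype next in order. These are levels in a library of fragments, and reads shared by copies may be counted more than once.

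**Figure D2:**
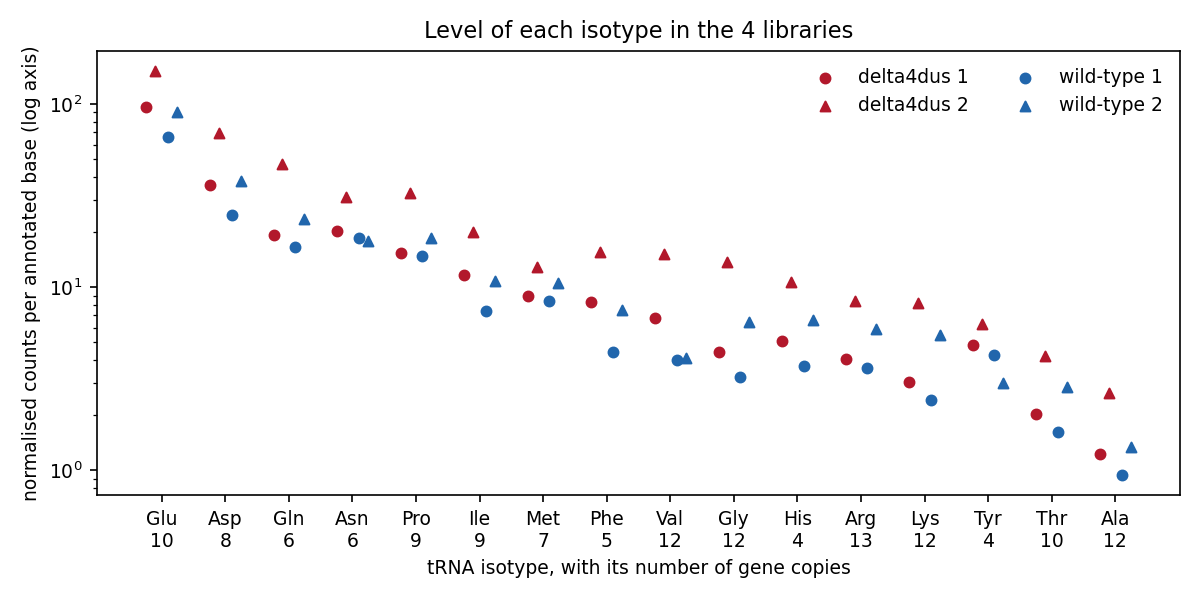
Normalised counts per annotated base of each isotype, on a log axis, in the 2 delta4dus libraries (red) and the 2 wild-type libraries (blue); the number under each isotype is its gene copies. tRNA-Glu and tRNA-Asp lie highest and tRNA-Thr and tRNA-Ala lowest in all 4 libraries.

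tRNA-Arg, with 13 copies, and tRNA-Ala, with 12, held 2.02% and 2.20%, and 0.569% and 0.638%, of all nuclear tRNA counts in the delta4dus libraries. In wild-type they held 2.30% and 2.68%, and 0.554% and 0.562%. tRNA-Glu, with 10 copies, held 35.9% and 29.6% in delta4dus and 31.4% and 30.6% in wild-type, the largest share of any isotype described here.

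All 16 isotype sums had a positive log2 fold change and none passed edgeR's quasi-likelihood test, which called 0.0901% of the 6662 features in the table that holds these sums; none had an unadjusted p under 0.05, and DESeq2 called 0. Both delta4dus libraries lay above both wild-type libraries for 6 isotypes, tRNA-Asn, tRNA-Glu, tRNA-Ile, tRNA-Phe, tRNA-Tyr and tRNA-Val, against 19.1% of the features in that table. The largest difference was that of tRNA-Val, with 6170 and 13840 normalised counts in delta4dus and 3633 and 3715 in wild-type. Its log2 fold change was 1.44 (SE 0.52; edgeR adjusted p = 0.672), and it was 1.91 without the first and 0.75 without the second delta4dus library. The smallest was that of tRNA-Met, with 4687 and 6807 in delta4dus and 4391 and 5527 in wild-type, a log2 fold change of 0.21 (SE 0.26; edgeR adjusted p = 0.903).

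The other isotypes lay between these. tRNA-Phe had 3031 and 5655 normalised counts in delta4dus and 1616 and 2740 in wild-type, a log2 fold change of 1.00. All 5 of its copies were separated between the strains, against 19.0% of all genes, but copies that share sequence and reads are not separate observations. tRNA-Gly (0.91), tRNA-Ile (0.80), tRNA-Ala (0.76), tRNA-Asp (0.75) and tRNA-Gln (0.73) followed. tRNA-Glu had 69610 and 109100 in delta4dus and 47660 and 64980 in wild-type, a log2 fold change of 0.67. tRNA-His (0.61), tRNA-Tyr (0.61), tRNA-Pro (0.53), tRNA-Lys (0.51), tRNA-Asn (0.50), tRNA-Thr (0.47) and tRNA-Arg (0.39) had smaller log2 fold changes, and their adjusted p by edgeR ranged from 0.650 for tRNA-Tyr to 0.930 for tRNA-Lys.

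**Figure D3:**
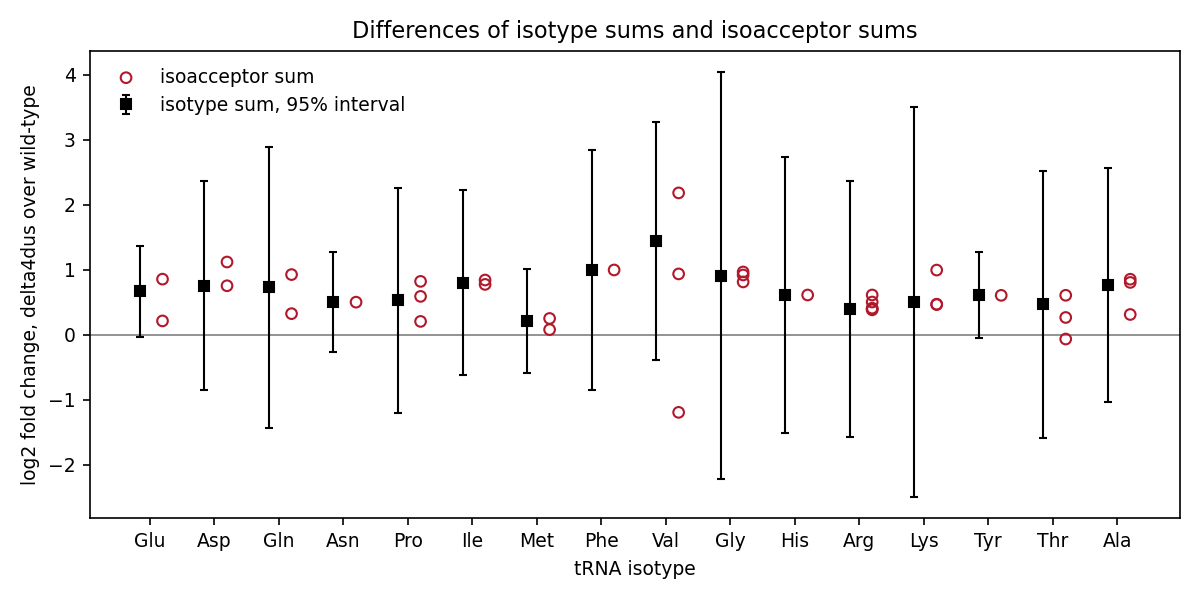
Log2 fold change of delta4dus over wild-type for each isotype sum (black squares, bars are 95% intervals) and for the sum of each isoacceptor (red circles), isotypes in order of level. Every isotype interval includes 0, and the 3 isoacceptors of tRNA-Val spread from −1.19 to 2.18.

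The isoacceptors of tRNA-Val had log2 fold changes of opposite sign. None passed edgeR's test, and DESeq2 called tRNA-Val-AAC higher. tRNA-Val-AAC, with 9 copies, had 4470 and 4372 normalised counts in delta4dus and 2870 and 1751 in wild-type, a log2 fold change of 0.93. The 2 copies of tRNA-Val-TAC had 1657 and 9375 in delta4dus and 648 and 1790 in wild-type, a log2 fold change of 2.18 with a 95% interval from −2.70 to 7.06. The single copy of tRNA-Val-CAC, SPATRNAVAL.01, had 45.2 and 83.2 in delta4dus and 116 and 175 in wild-type. It was the 1 gene of the 139 that lay below wild-type in both delta4dus libraries, with a log2 fold change of −1.19 (SE 0.38; edgeR adjusted p = 0.626). Its raw counts were 60 and 76 in delta4dus and 115 and 145 in wild-type.

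Set against each other within a library, these isoacceptors need no scaling. The ratio of tRNA-Val-CAC to tRNA-Val-AAC counts was 0.0101 and 0.0191 in delta4dus and 0.0403 and 0.0997 in wild-type, lower in both delta4dus libraries. The ratio of tRNA-Val-TAC to tRNA-Val-AAC was 0.371 and 2.14 in delta4dus and 0.226 and 1.02 in wild-type, so it was higher in the second library of both strains and the groups overlapped. tRNA-Val-CAC had a negative log2 fold change under each alternative tried, from −1.79 to −0.80.

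The isoacceptors of tRNA-Glu also differed from each other. The 4 copies of tRNA-Glu-TTC, which reads GAA codons, had 55450 and 78700 normalised counts in delta4dus and 33230 and 40970 in wild-type, and the groups did not overlap. The log2 fold change was 0.85 (SE 0.20; edgeR adjusted p = 0.578). The 6 copies of tRNA-Glu-CTC, which reads GAG, had 14180 and 30380 in delta4dus and 14440 and 24010 in wild-type, a log2 fold change of 0.21 (SE 0.58; edgeR adjusted p = 0.963). The ratio of tRNA-Glu-TTC to tRNA-Glu-CTC was 3.91 and 2.59 in delta4dus and 2.30 and 1.71 in wild-type. Both ratios in delta4dus were above both in wild-type, by 0.68 on the log2 scale. The spliced sequences printed above for these isoacceptors differ at 13 of 72 bases.

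In tRNA-Gln, 2 of the 4 copies of tRNA-Gln-TTG differ from tRNA-Gln-CTG at 1 of 72 bases, the first base of the anticodon, as the printed sequences show. The other 2 copies differ from it at 6 bases. tRNA-Gln-TTG had 5511 and 14950 normalised counts in delta4dus and 4283 and 6491 in wild-type (log2 fold change 0.92), and tRNA-Gln-CTG had 2778 and 5342 in delta4dus and 2834 and 3647 in wild-type (0.32). Their ratio was 1.98 and 2.80 in delta4dus and 1.51 and 1.78 in wild-type. Where copies differ at 1 base, a read that does not cover it can match both isoacceptors. How such reads were counted is not known.

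Over the 10 pairs of isoacceptors with T or C as the first anticodon letter and the other letters alike, the T-to-C ratio was above wild-type in both delta4dus libraries for 4, those of tRNA-Gln, tRNA-Glu, tRNA-Pro and tRNA-Val, and below for none. For tRNA-Pro the ratio was 0.104 and 0.0717 in delta4dus and 0.0549 and 0.0506 in wild-type, and for tRNA-Val 36.7 and 113 in delta4dus and 5.60 and 10.3 in wild-type. The log2 ratio was higher in delta4dus for 8 of the 10 pairs and lower for both pairs of tRNA-Arg, by −0.07 and −0.01. With 2 libraries a strain an exact permutation test cannot give a p under 0.333 for any of these ratios. No share of separated ratios over other genes was computed to set beside the 4 of 10. The isoacceptors of tRNA-Gln may share reads, as stated above. The ratios of tRNA-Pro and tRNA-Val rest on few raw counts. tRNA-Pro-TGG held 176 and 235 in delta4dus and 86 and 111 in wild-type, and tRNA-Val-CAC 60 and 76 in delta4dus and 115 and 145 in wild-type. The pairs were set up after the isoacceptor values were seen.

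Across all isoacceptor sums, 35 of 37 had a positive log2 fold change, the exceptions being tRNA-Val-CAC and tRNA-Thr-CGT (−0.07). The 37 include 1 tRNA-Asp and 1 tRNA-Lys gene to which the search assigned no anticodon. None passed edgeR's quasi-likelihood test, which called 0.0897% of the features in that table. At an unadjusted p under 0.05, 3 were higher (tRNA-Glu-TTC, tRNA-Ile-AAT and the unassigned tRNA-Asp gene) and 1 lower (tRNA-Val-CAC), where all features gave 3.50% higher and 4.14% lower. In 11 both delta4dus libraries lay above wild-type and in 1 below, against 19.1% above and 19.6% below. DESeq2 called 3 of these sums, all higher: tRNA-Glu-TTC (adjusted p = 0.00296), tRNA-Val-AAC (adjusted p = 0.00911) and tRNA-Ile-AAT (adjusted p = 0.00934). Its share over all features of that table was not computed, and among single genes it called 0.432% higher.

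In tRNA-Ile and in tRNA-Met the isoacceptors had log2 fold changes close to each other. tRNA-Ile-AAT, with 8 copies, had 3006 and 4580 normalised counts in delta4dus and 2104 and 2127 in wild-type (log2 fold change 0.84). The single copy of tRNA-Ile-TAT, SPATRNAILE.02, had 5050 and 9266 in delta4dus and 3001 and 5374 in wild-type (0.77), and per base it stood at 57.3 against 4.99 for the mean copy of tRNA-Ile-AAT. How reads shared by the 8 copies of tRNA-Ile-AAT were counted is not known, which limits this comparison of levels. Initiator tRNA-Met, which starts translation, had 3557 and 5453 in delta4dus and 3236 and 4338 in wild-type (0.25). Elongator tRNA-Met had 1131 and 1351 in delta4dus and 1156 and 1190 in wild-type (0.08), with the narrowest 95% interval of all isoacceptors, from −0.16 to 0.32.

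As a share of all nuclear tRNA counts, 5 of the 16 isotypes were higher and 2 lower in both delta4dus libraries. Of the 37 isoacceptor sums, 5 had a higher and 10 a lower share in both. For neither count was a share over all isotypes or isoacceptors computed. tRNA-Met took 2.42% and 1.85% in delta4dus and 2.90% and 2.61% in wild-type, and tRNA-Arg was also lower in both delta4dus libraries. tRNA-Val took 3.19% and 3.76% in delta4dus and 2.40% and 1.75% in wild-type, and tRNA-Asp, tRNA-Ile, tRNA-Phe and tRNA-Ala were likewise higher in both. Of the 139 genes, 19 had a higher and 25 a lower share in both delta4dus libraries; over all 171 nuclear tRNA genes 15.8% were higher and 19.9% lower.

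Copies with the same spliced sequence could differ widely. Of the 49 sequences, 24 were carried by 2 to 9 copies, and in 10 of these the highest copy had over 2 times the normalised counts per base of the lowest. A read from within an identical stretch cannot be assigned to a copy, and the 4 copies of tRNA-Glu-TTC, at 179 to 184 counts per base, differed by no more than 1.03-fold. The widest spread, 43.6-fold, was that of elongator tRNA-Met, followed by initiator tRNA-Met (31.1-fold), tRNA-Lys-CTT (21.6-fold), tRNA-Gln-CTG (6.47-fold) and tRNA-Ile-AAT (5.04-fold). Copies with an intron, such as those of elongator tRNA-Met, were not all divided by the same length, as the annotated length includes the intron in only some.

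In tRNA-Met the high copies were those beside another tRNA gene. The genes of this paragraph other than SPCTRNAMET.07, SPATRNAMET.02, SPBTRNAMET.04 and SPBTRNAASN.01 were chosen after their values were seen. Initiator genes SPATRNAMET.01, SPATRNAMET.03 and SPCTRNAMET.07 each lie 7 bases from a tRNA-Ser gene on the same strand, and the fourth, SPBTRNAMET.06, has no tRNA gene within 20 bases. SPATRNAMET.01 had 1574 and 1642 counts in delta4dus and 1060 and 1172 in wild-type, and SPCTRNAMET.07 had 1629 and 1755 in delta4dus and 1123 and 1274 in wild-type. SPBTRNAMET.06, with the same sequence, had 65 and 68 in delta4dus and 33 and 25 in wild-type. Likewise the elongator gene SPBTRNAMET.05, 5 bases from SPBTRNAASN.01, had 1401 and 1162 in delta4dus and 1108 and 936 in wild-type. SPATRNAMET.02 had 37 and 35 in delta4dus and 20 and 26 in wild-type, and SPBTRNAMET.04 had 64 and 35 in delta4dus and 21 and 26 in wild-type. Not every neighbour went with a high count: SPBTRNAASN.01 had 9.79 normalised counts per base, below the 14.0 to 15.6 of the 4 other copies of its sequence.

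**Figure D4:**
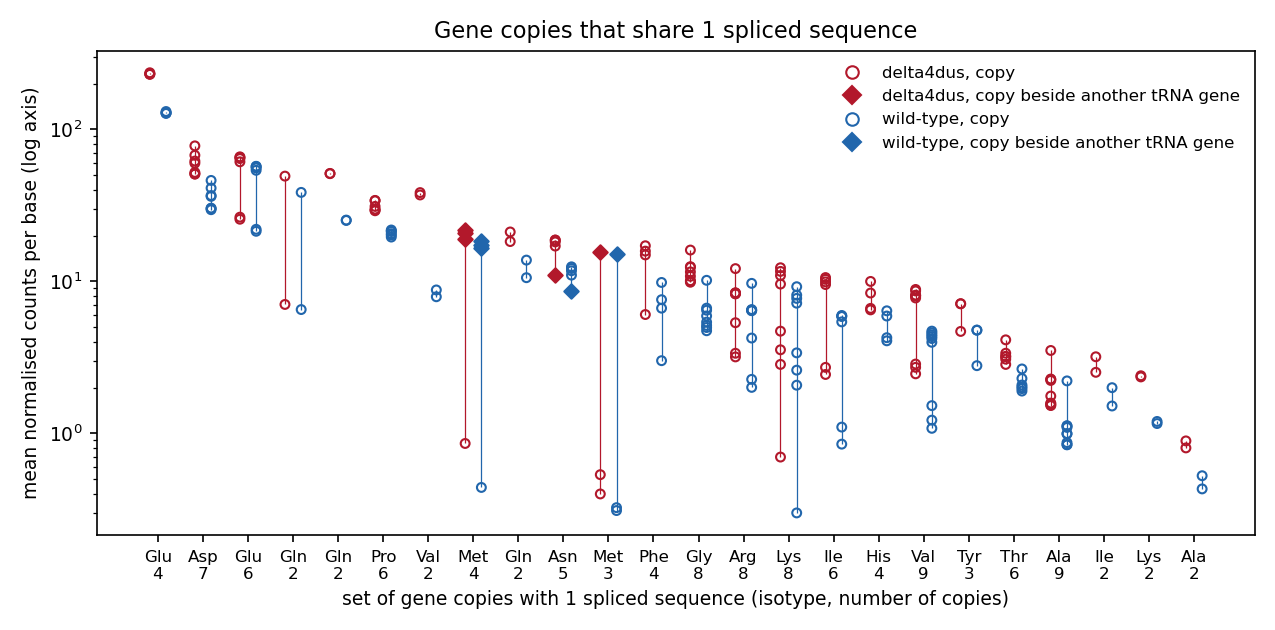
Mean normalised counts per base, on a log axis, of each gene copy in the 24 sets of copies that share 1 spliced sequence, delta4dus (red) left of wild-type (blue) in each set; filled diamonds are copies within 20 bases of another tRNA gene on the same strand and lines join the lowest and highest copy. The longest lines are those of elongator tRNA-Met (43.6-fold), initiator tRNA-Met (31.1-fold) and tRNA-Lys-CTT (21.6-fold), in both strains.

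In tRNA-Ile-AAT and tRNA-Val-AAC the largest log2 fold changes were those of copies with few counts, but other copies with few counts had the smallest. SPATRNAILE.04 had 151 and 210 normalised counts in delta4dus and 66.6 and 59.0 in wild-type, a log2 fold change of 1.51 (edgeR adjusted p = 0.484). SPBTRNAILE.07 had 179 and 223 in delta4dus and 86.7 and 75.8 in wild-type (1.30). The 4 other copies of the same sequence had log2 fold changes from 0.74 to 0.83. All 6 were higher in both delta4dus libraries, against 19.0% of all genes, but copies that share sequence and reads are not separate observations. The remaining copies of tRNA-Ile-AAT, named after their values were seen, share a sequence that differs from that of the 6 at 2 of 74 bases. SPATRNAILE.01 had 145 and 327 in delta4dus and 121 and 175 in wild-type (0.67). SPCTRNAILE.09 had 105 and 268 in delta4dus and 86.7 and 137 in wild-type (0.73). Both overlapped between the strains. SPCTRNAVAL.09 had 197 and 205 in delta4dus and 95.8 and 63.8 in wild-type (1.32), and SPBTRNAVAL.07 had 203 and 220 in delta4dus and 112 and 68.6 in wild-type (1.22). SPATRNAVAL.03, another copy with few counts and named after its values were seen, had 142 and 262 in delta4dus and 130 and 119 in wild-type, and its log2 fold change of 0.69 was the smallest of the 9 copies of tRNA-Val-AAC. SPATRNAVAL.04, the copy of tRNA-Val-AAC with the most counts in the first delta4dus library, had 712 and 626 in delta4dus and 441 and 319 in wild-type (0.81). In SPCTRNAVAL.09, SPBTRNAVAL.07 and SPATRNAVAL.04 the delta4dus libraries were close to each other, whereas in SPATRNAVAL.03 the second lay above the first, as in most of the 139 genes.

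A single copy of tRNA-Asn stood apart in level. SPBTRNAASN.04 differs from the 5 other copies at 1 of 74 bases, and it had 4442 and 6044 normalised counts in delta4dus and 4585 and 3312 in wild-type. Its 62.1 counts per base were the highest of the 139 genes outside tRNA-Glu, level with the 62.1 of SPATRNAASP.01, and the 5 other copies of tRNA-Asn had 9.79 to 15.6. Its log2 fold change was 0.41 (SE 0.26; edgeR adjusted p = 0.795). How reads shared by the 5 copies of 1 sequence were counted is not known, so their level per copy is uncertain.

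Genes with few counts included SPATRNALYS.01, a copy of tRNA-Lys-CTT with 27.1 and 88.7 normalised counts in delta4dus and 17.1 and 32.5 in wild-type. The highest copy of that sequence, SPCTRNALYS.10, had 620 and 1421 in delta4dus and 487 and 1043 in wild-type. Of the tRNA-Arg genes, SPCTRNAARG.10, the only copy with the anticodon TCG, was lowest at 0.548 counts per base and SPBTRNAARG.07 highest at 10.9. In tRNA-Pro, SPBTRNAPRO.08 had 54.2 and 69.0 in delta4dus and 33.3 and 32.5 in wild-type (log2 fold change 0.89), and SPATRNAPRO.03 had 1562 and 3350 in delta4dus and 1413 and 1677 in wild-type (0.67).

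The anticodon search failed on some genes as they are annotated. SPBTRNAASP.05 is annotated on the strand opposite to its tRNA: the reverse complement of its sequence is the sequence shared by the 7 other tRNA-Asp genes. It held 158 and 90 counts in delta4dus and 44 and 47 in wild-type, a log2 fold change of 1.11 (SE 0.26, unadjusted p = 0.00595, adjusted p = 0.545, edgeR), so these counts are of antisense reads as annotated. The sum of the 7 other genes was 20490 and 39400 normalised counts in delta4dus and 14050 and 21490 in wild-type (0.75). SPBTRNALYS.07 is annotated with an intron of 7 bases, and its annotated exons hold 76 bases against 75 in tRNA-Lys-CTT. The letters CTT stand at the same place as in tRNA-Lys-CTT, and the extra base follows them. The search needs a loop of fixed length and so assigned no anticodon. It held 243 and 476 counts in delta4dus and 181 and 271 in wild-type, and SPBTRNALYS.08 held 243 and 477 in delta4dus and 181 and 270 in wild-type.

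Among the genes themselves, the letters of the D loop and the presence of an intron went with little difference. The D loop, taken as the stretch marked above, held 1 T in 21 genes, 2 in 48, 3 in 50 and 4 in 18, and the median log2 fold changes were 0.75, 0.62, 0.80 and 0.52 in that order. An intron was annotated in 30 genes, among them all 4 of tRNA-Tyr, 9 of 12 of tRNA-Val and 9 of 12 of tRNA-Lys. Those 30 had a median of 0.57, and the 109 without had 0.68. As copies share sequence and reads, these medians are descriptions without a test.

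The lists of genes that make and use tRNA had medians near 0, where 50.0% of all genes tested had a positive log2 fold change. None of 23 genes of RNA polymerase III and its factors passed edgeR's quasi-likelihood test or DESeq2, and 9 had a positive and 14 a negative log2 fold change, with a median of −0.02. The smallest p was that of tbp1, the TATA-binding protein, with 10660 and 10960 normalised counts in delta4dus and 9798 and 10260 in wild-type (log2 fold change 0.11, adjusted p = 0.707, edgeR). Of 22 genes of tRNA processing, splicing and export none passed, 7 were positive and 15 negative, with a median of −0.05; trl1, the tRNA ligase that joins spliced exons, had 2974 and 3067 in delta4dus and 3227 and 3275 in wild-type. Of 35 aminoacyl-tRNA synthetase genes none passed, 25 were positive and 10 negative, with a median of 0.05. Several amino acids have a second synthetase gene in that list, and the names used do not say which enzymes act in mitochondria. The smallest p there was that of vrs2, a valine tRNA ligase, with 2020 and 2002 in delta4dus and 2412 and 2440 in wild-type (log2 fold change −0.27, unadjusted p = 0.00317, adjusted p = 0.499, edgeR). The other valine tRNA ligase gene, vrs1, had 45750 and 47890 in delta4dus and 42220 and 44990 in wild-type (0.10). The largest log2 fold change among the synthetase genes, 0.57 (edgeR adjusted p = 0.909), was that of the proline tRNA ligase gene SPBC24C6.03, named after its values were seen. It had 140500 and 431200 in delta4dus and 118700 and 266900 in wild-type, high in the second library of each strain. The other proline tRNA ligase gene, prs1, had 35630 and 40310 in delta4dus and 34690 and 38140 in wild-type. Whether all counts of SPBC24C6.03 come from the synthetase transcript was not tested.
Set against the 32 genes of tRNA-Cys, tRNA-Trp, tRNA-Leu and tRNA-Ser, the 139 genes took a larger part of the nuclear tRNA counts in delta4dus. The ratio of their counts was 4.11 and 3.30 in delta4dus and 3.09 and 2.98 in wild-type, a difference of 0.28 on the log2 scale (exact permutation test, two-sided, p = 0.333, the smallest that 2 against 2 libraries allows). Against tRNA-Cys alone the ratio was 274 and 412 in delta4dus and 573 and 863 in wild-type, so its direction turned round (−1.06), and against tRNA-Trp alone it did too (−0.65). Against tRNA-Leu (0.26) and tRNA-Ser (0.37), which hold most of those counts, it was higher in both delta4dus libraries.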

How the data were processed

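RNA sequencing libraries of 2 delta4dus and 2 wild-type samples were compared. Per the labels' protocols, 125 ng of RNA depleted of ribosomal RNA, from total RNA with an integrity number above 8.5, entered a stranded library kit. Per the submitters' processing notes, reads were trimmed with Trimmomatic 0.36, TopHat2 and the ASM294v2 build were used, and counting used featureCounts, whose options no source used here gives. The deposited table holds raw counts for 7049 genes, and 0 count columns were left unused. In 7 sets of copies, holding 15 genes, counts were equal within 2% in every library. In all, 114 genes share a spliced sequence with another gene, and 10 of those 24 sets spanned over 2-fold in counts per base. Whether a read was counted at each copy it matches was not tested. How much of a count came from mature tRNA and how much from precursors was not tested. The authors' deposited comparison, for which the notes name DESeq2, gives a mean normalised signal, a log2 fold change with its error, a test score and p-values; only the log2 values and adjusted p-values are printed.

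Genes were tested with edgeR 4.0.16 (R 4.3.3; robust quasi-likelihood fit, TMM scaling, filterByExpr with a minimum count of 10 and total of 15, genotype as the term, two-sided, 2 residual degrees of freedom), with Benjamini-Hochberg adjustment over the 6813 genes kept and calls at 0.05. All 139 tRNA genes passed the filter. Normalised counts are counts over the TMM-based relative library size. Counts per base divide by the annotated length in the deposited table. Of the 30 genes with an intron, that length includes the intron in 13 and leaves it out in 17. Isotype and isoacceptor sums replaced the single nuclear tRNA genes in tables of 6662 and 6691 features, tested alike. DESeq2 1.42.0 and the settings of the closing section were alternatives. Intervals are 95%.

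Sequences are RefSeq's (ASM294v3), matched by identifier for all 139 genes; starts and ends equal those of the deposited table for all 171 nuclear tRNA genes. A 5′ to 3′ search for an anticodon of the named amino acid after T or C, in a loop closed by at least 4 pairs, assigned 137 genes. 5 genes overlap another gene on the same strand, so their counts are uncertain.

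The genes, lists and tests were chosen with earlier results of these data known. By rule the text names all isotype sums, the highest and lowest copy of an isotype per base, the genes with the smallest p, those called in the authors' table and the pathway genes with the smallest p; others are named after their values were seen. Isoacceptor sums were added after the data were examined, as was the wording that collected the synthetase genes; pop1 and pop2 were left out of the processing list because RefSeq gives those symbols to other proteins.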

Additional observations from a re-analysis of the deposited data

How the results depend on the processing

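The sign of the sum over the 139 genes stayed positive under the alternatives run. Leaving out 1 library in turn, its log2 fold change ranged from 0.19 to 1.05; 0 genes were called in each case, 0 to 1 isotypes, 0 to 2 isoacceptors and 0 pathway genes. The isotype was tRNA-Val without the first delta4dus library (log2 fold change 1.91), a fit that rests on the second delta4dus library alone. In that second library tRNA-Val-TAC had 9375 normalised counts, against 1657 in the first. DESeq2 called 10 genes and 3 isoacceptors. The ratio to the other isotypes was −1.06 against tRNA-Cys alone and −0.65 against tRNA-Trp alone, and the cause was not tested.

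With the replicate number as a block, edgeR called 83 of the tRNA genes (82 higher, 1 lower), 10 isotypes, 20 isoacceptors, 3 pathway genes and the sum (0.64, adjusted p = 1.07e-07), and 825 genes in all. Deviations from the strain means correlated between same-numbered libraries (Pearson r 0.59 over 6807 genes and 0.79 over the 139, across genes, which are not independent). The labels do not say that a number marks a shared culture or day, so whether same-numbered samples were paired is not known.

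Library totals alone as the scaling put the median of all genes at −0.42 and that of the tRNA genes at 0.12. Negative log2 fold changes there, positive with TMM, were −0.20 for SPBTRNAARG.07, −0.078 for SPBTRNAASN.04, −0.15 for SPBTRNAASN.01, −0.17 for SPBTRNAGLN.01, −0.46 for SPBTRNAGLN.03, −0.29 for SPCTRNAGLU.10, −0.13 for SPCTRNALYS.10, −0.25 for SPCTRNAMET.07, −0.10 for SPATRNAMET.02, −0.42 for SPCTRNATHR.10, −0.12 for SPATRNATHR.03, −0.0019 for SPBTRNATYR.04, −0.32 for tbp1, −0.27 for dia4, −0.14 for tRNA-Arg, −0.0008 for tRNA-Asn, −0.064 for tRNA-Lys and tRNA-Thr, −0.27 for tRNA-Met, −0.023 for tRNA-Pro, −0.21 for tRNA-Gln-CTG, −0.33 for tRNA-Glu-CTC, −0.37 for elongator and −0.24 for initiator tRNA-Met. Scaling to nuclear tRNA counts put the median of all genes at −0.52 and that of the tRNA genes at 0.02. It gave −0.29 for SPBTRNAARG.07, −0.088 for SPCTRNAARG.10, −0.22 for SPBTRNAASN.04 and SPATRNATHR.03, −0.25 for SPBTRNAASN.01, −0.27 for SPBTRNAGLN.01, −0.58 for SPBTRNAGLN.03, −0.38 for SPCTRNAGLU.10, −0.028 for SPBTRNAGLY.04, −0.20 for SPCTRNALYS.10, −0.35 for SPCTRNAMET.07, −0.18 for SPATRNAMET.02, −0.0026 for SPATRNAPRO.03, −0.53 for SPCTRNATHR.10, −0.038 for SPBTRNATYR.03, −0.12 for SPBTRNATYR.04, −0.41 for tbp1, −0.36 for dia4, −0.23 for tRNA-Arg, −0.12 for tRNA-Asn, −0.0092 for tRNA-His, −0.14 for tRNA-Lys and tRNA-Pro, −0.37 for tRNA-Met, −0.15 for tRNA-Thr, −0.0097 for tRNA-Tyr, −0.31 for tRNA-Gln-CTG, −0.42 for tRNA-Glu-CTC, −0.48 for elongator and −0.33 for initiator tRNA-Met. Both scalings rest on other totals by construction.

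Leaving out 1 library in turn, the sign turned for the following, given as ranges: −0.63 to 0.60 for SPBTRNAGLN.03, −0.46 to 0.74 for SPCTRNAGLU.10, −0.30 to 1.06 for SPCTRNALYS.10, −0.42 to 0.48 for SPCTRNATHR.10, −0.29 to 0.14 for SPATRNATHR.04, −0.17 to 0.69 for SPBTRNAARG.07, −0.0091 to 0.64 for SPBTRNAASN.01, −0.16 to 0.73 for SPBTRNAGLN.01, −0.13 to 1.17 for SPBTRNAGLY.03, −0.80 to 1.63 for SPBTRNAGLY.04, −0.045 to 1.27 for SPCTRNAHIS.04, −0.12 to 0.53 for SPCTRNAMET.07, −0.22 to 0.82 for tRNA-Arg, −0.057 to 1.23 for tRNA-Gln, −0.12 to 1.51 for tRNA-Gly, −0.023 to 1.09 for tRNA-His, −0.37 to 1.21 for tRNA-Lys, −0.081 to 0.45 for tRNA-Met, −0.12 to 0.97 for tRNA-Pro, −0.14 to 0.93 for tRNA-Thr, −0.22 to 0.72 for tRNA-Gln-CTG, −0.44 to 0.66 for tRNA-Glu-CTC, −0.053 to 0.20 for elongator and −0.089 to 0.52 for initiator tRNA-Met. Leaving out the second delta4dus library gave 23 of these turns. Low counts did not always go with low precision: SPATRNAMET.02, with 20 to 37 counts a library, had an SE of 0.38. Larger SEs included those of SPBTRNAGLY.05 (1.60) and SPATRNAVAL.02 (1.21), whose delta4dus libraries lay far apart.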
